A study of Mus musculus with 9 samples.

Results

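The 10 C-type lectin receptor genes Mgl2, Clec10a, Cd209a, Mrc1, Clec4d, Clec4e, Clec4n, Clec7a, Clec12a and Clec4a1 were followed across 3 phagocyte populations of the mouse Peyer's patch, the lymphoid follicles of the small intestine. A gene was measured by its transcript cluster, the probe set that an Affymetrix whole-transcript array assigns to a gene. Clusters that the platform annotation gives to 1 member symbol only were used, which yielded 11 of 33793 clusters and 10 of 22180 genes. Cd209a has 2 such clusters, and the one with the higher mean over 9 arrays stands for the gene in counts, while both are reported. The populations were lysozyme-expressing macrophages (LysoMac) and lysozyme-expressing dendritic cells sorted as positive or negative for C5aR, which binds complement C5a (C5aR+ LysoDC and C5aR- LysoDC). Each was represented by 3 arrays, and all were sorted by flow cytometry from digested patches after dead cells had been removed and cells with CD11c enriched on magnetic beads. Cells were stained for MHCII, CD4, C5aR, BST2, SIRP and CD11c. No group's strain, genotype, age or treatment, mice per array or gates were found in the labels. Since no label ties an array to its own mouse or mice, the p-values reflect only how much these arrays scatter, and that scatter may be technical.

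C-type lectin receptors recognise sugars and other ligands on microbes and damaged cells, many of them through a fold that needs calcium. Some take their ligand into the cell for degradation and antigen presentation. Others start signalling through Syk and the adaptor Card9, either directly or through a partner chain such as FcRγ (gene Fcer1g), and still others carry inhibitory motifs that damp such signals. Peyer's patch phagocytes sit below the follicle epithelium, which passes luminal material to them, and lectins are among the receptors by which such cells handle microbes. Many of these genes lie side by side in the genome. In the RefSeq order of protein-coding genes of GRCm38.p6, Mgl2 and Clec10a are direct neighbours on chromosome 11. On chromosome 6 Clec4n, Clec4d and Clec4e follow each other with no gene between them.

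Promoter sequences were found for 8 of the 10 genes in RefSeq (GRCm38.p6). Clec10a and Clec4n were not among them. The windows of Mgl2, which rose in both LysoDC populations against LysoMac, and of the neighbours Clec4d and Clec4e, which were both lowest in C5aR- LysoDC, are shown because they stand for the opposite patterns described below. Each window holds the 250 bases before the transcription start, 5' to 3' on the gene's strand, with capitals for GAGGAA, the core of the element bound by the myeloid factor PU.1, or its reverse complement. Mgl2 lies on the plus strand at chr11:70130107-70130356, Clec4d on the plus strand at chr6:123261857-123262106 and Clec4e on the minus strand at chr6:123289872-123290121.
Mgl2: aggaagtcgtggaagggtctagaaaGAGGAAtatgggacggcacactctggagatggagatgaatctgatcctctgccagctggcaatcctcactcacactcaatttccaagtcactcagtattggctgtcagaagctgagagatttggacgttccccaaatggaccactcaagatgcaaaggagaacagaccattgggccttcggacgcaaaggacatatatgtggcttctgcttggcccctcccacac
Clec4d: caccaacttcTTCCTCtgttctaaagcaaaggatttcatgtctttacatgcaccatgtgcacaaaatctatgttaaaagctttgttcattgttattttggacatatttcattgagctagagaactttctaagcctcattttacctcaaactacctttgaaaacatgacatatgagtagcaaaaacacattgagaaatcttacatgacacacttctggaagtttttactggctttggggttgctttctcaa
Clec4e: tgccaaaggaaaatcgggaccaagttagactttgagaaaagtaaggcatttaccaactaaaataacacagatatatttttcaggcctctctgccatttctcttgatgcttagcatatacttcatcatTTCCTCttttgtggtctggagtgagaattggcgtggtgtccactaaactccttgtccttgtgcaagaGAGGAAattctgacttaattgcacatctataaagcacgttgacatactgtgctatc
The PU.1 core, sought on both strands, was present in the windows of 7 of the 8 genes (all but Cd209a) and in 23.3% of all 32851 promoter windows of this length. The STAT6 element, TTC and GAA with 4 bases of any kind between them, was found in Clec4a1 and Clec7a and in 5.85% of all windows, and the AP-1 element TGANTCA, in which N is any base, in Clec12a and in 6.75%. No printed window held either of these elements, and no matches of different elements overlapped in the printed windows. These matches are descriptions of letters only. The PU.1 core stood at -225 to -220 from the start in Mgl2, at -240 to -235 on the opposite strand in Clec4d, and at -123 to -118 on the opposite strand and -56 to -51 in Clec4e.

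Values are log2 expression, on which a difference of 1 is a factor of 2. Differences were tested with limma over all 33793 clusters, a call being a Benjamini-Hochberg adjusted p under 0.05. Array medians lay between 3.39 and 3.65, and where a population's mean fell below every array median, the difference is treated as a lower bound and given without a fold. As to the labels, C5ar1 had a mean of 4.68 in C5aR+ LysoDC, 3.01 in C5aR- LysoDC and 4.60 in LysoMac, and lysozyme (Lyz2) was at 10.63 or more in each. Of the markers of macrophages 9 of 10 were measured, and their mean log2 level per array was 7.93 to 8.49 for C5aR- LysoDC, 8.81 to 9.42 for C5aR+ LysoDC and 8.32 to 9.02 for LysoMac. Fcgr1 and Adgre1 were higher in C5aR+ LysoDC than in LysoMac (7.94 against 4.64 and 7.63 against 5.87), while others, such as Mertk (7.17 against 7.95), were lower. The 10 conventional dendritic cell markers had mean levels of 7.59 to 7.99 in C5aR- LysoDC, 6.53 to 6.71 in C5aR+ LysoDC and 5.78 to 6.23 in LysoMac. LysoMac array 3 had a mean correlation of 0.954 with its own population and 0.968 with the others. LysoMac array 2 had the lowest such correlations of the 9 arrays, 0.948 and 0.933. It also had the highest median (3.65) and the narrowest interquartile range of values (2.16). LysoMac as a group varied most (mean variance 0.179, against 0.0958 and 0.0854). These unequal spreads are pooled into a single variance for each cluster, and a fit with a weight for each population is among the alternatives. In bulk samples, fewer cells that express a gene and less RNA per cell cannot be told apart.

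Of the 10 genes 3 differed between C5aR- LysoDC and LysoMac, where 1.53% of all clusters were called. Mgl2 and Clec10a rose and Clec4d fell, against 1.13% of all clusters higher and 0.405% lower. Between C5aR+ LysoDC and LysoMac 1 gene differed, Mgl2, which rose, where 0.0503% of all clusters were called. Between C5aR+ and C5aR- LysoDC 0 of 10 were called in limma, against 0.101% of all clusters, while 4 had an unadjusted p under 0.05 (Mgl2, Clec10a, Clec4d and Clec4e), against 5.46% of all clusters. The dimmer cluster of Cd209a, which does not stand for the gene, was called in this comparison and in that of C5aR- LysoDC with LysoMac. At an unadjusted p under 0.05, 8 of 10 genes differed between C5aR- LysoDC and LysoMac and 7 of 10 between C5aR+ LysoDC and LysoMac, against 13.2% and 6.19% of all clusters. The 3 comparisons share arrays, so their counts are not separate evidence. The plot of the values by array shows all of them.

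**Figure D1:**
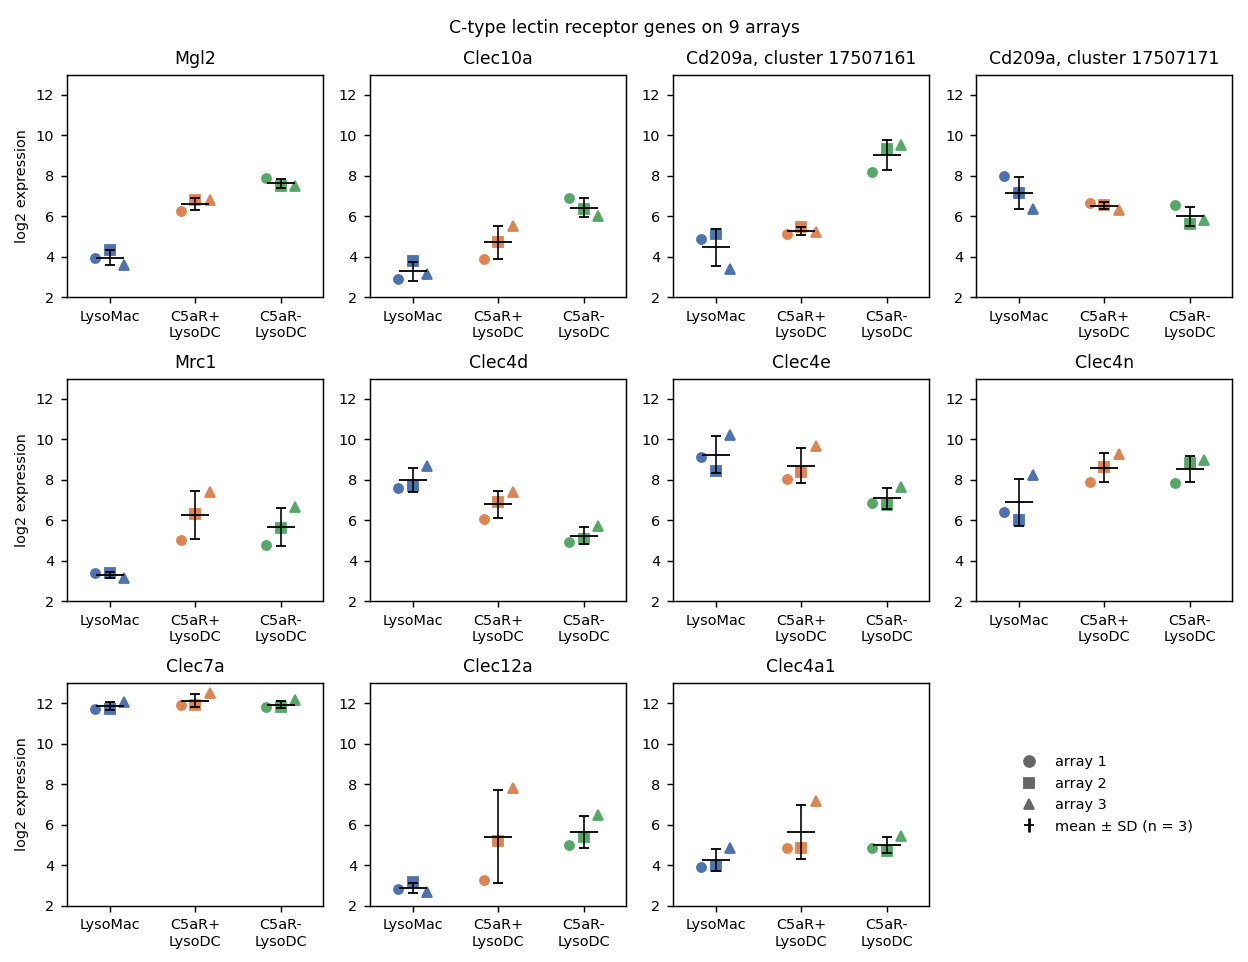
Log2 expression (y axis, the same scale in each panel) of the 10 genes, with both clusters of Cd209a, in LysoMac, C5aR+ LysoDC and C5aR- LysoDC (x axis). Symbols are arrays 1, 2 and 3, and bars are the mean ± SD (n = 3). Mgl2 lies between 3.60 and 4.34 in LysoMac and at 6.27 or more in every LysoDC array, while Clec4d is highest in LysoMac and lowest in C5aR- LysoDC.

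Mgl2 and Clec10a encode the neighbouring galactose-type lectins CD301b and CD301a, which bind terminal galactose and N-acetylgalactosamine. Mgl2 read 3.95, 4.34 and 3.60 on LysoMac arrays 1, 2 and 3, 6.27, 6.80 and 6.80 in C5aR+ LysoDC, and 7.88, 7.48 and 7.49 in C5aR- LysoDC. No arrays of any 2 populations overlapped, and C5aR+ LysoDC lay between the others. From LysoMac, Mgl2 rose by 2.66 ± 0.23 in C5aR+ LysoDC (SE, n = 3 arrays per population; limma, adjusted p = 0.00672), a factor of 6.32. In C5aR- LysoDC the rise was 3.66 ± 0.23 (limma, adjusted p = 0.00035), a factor of 12.6. The difference of -1.0 ± 0.23 between the LysoDC populations did not pass (limma, adjusted p = 0.255), with a 95% interval of -1.52 to -0.47. The rise in C5aR- LysoDC was called under all 23 alternatives, with adjusted p of 7.18e-06 to 0.0131. The rise in C5aR+ LysoDC was called under 19 of 23 (adjusted p of 0.000209 to 0.144). Its call was lost without LysoMac array 1 (adjusted p = 0.078), without C5aR+ LysoDC array 2 (adjusted p = 0.0784), in a fit of these 2 populations alone (adjusted p = 0.106) and with the 3 arrays numbered 3 left out together (adjusted p = 0.144).

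Clec10a had the same order of populations as Mgl2, at wider spread. It read 2.90, 3.79 and 3.14 in LysoMac, 3.87, 4.75 and 5.51 in C5aR+ LysoDC and 6.91, 6.37 and 5.99 in C5aR- LysoDC, again with no overlap between any 2 populations. The LysoMac mean of 3.28 lay below every array median. Clec10a rose by 3.15 ± 0.42 from LysoMac to C5aR- LysoDC (limma, adjusted p = 0.00948), which is a lower bound, and the call was lost without LysoMac array 1 (adjusted p = 0.0526) or C5aR- LysoDC array 2 (adjusted p = 0.0524), within a range of 0.000432 to 0.0526 over 23 alternatives. C5aR+ LysoDC differed by 1.43 ± 0.42 from LysoMac (adjusted p = 0.64 in limma) and by -1.71 ± 0.42 from C5aR- LysoDC (adjusted p = 0.291 in limma). The 2 genes are close paralogs, and whether their probes tell them apart was not tested.

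Cd209a, a mouse relative of the human dendritic cell lectin DC-SIGN, gave opposite patterns on its 2 transcript clusters. The cluster with the higher mean over all arrays (17507171, 6.56) read 7.98, 7.14 and 6.38 in LysoMac, 6.67, 6.57 and 6.32 in C5aR+ LysoDC and 6.55, 5.61 and 5.82 in C5aR- LysoDC. These arrays overlapped between every 2 populations, and no difference passed, the largest being -1.17 ± 0.38 from LysoMac to C5aR- LysoDC (limma, adjusted p = 0.233). That difference was -0.76 without LysoMac array 1 (adjusted p = 0.467), and it passed without LysoMac array 3 (-1.56, adjusted p = 0.0444) and with array weights (-1.89, adjusted p = 0.00347). The other cluster (17507161, mean 6.26) read 4.86, 5.13 and 3.42 in LysoMac, 5.13, 5.49 and 5.23 in C5aR+ LysoDC and 8.20, 9.34 and 9.54 in C5aR- LysoDC. Here the 3 C5aR- LysoDC arrays stood far above the other 6, which overlapped.

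On the second cluster, C5aR- LysoDC were 4.56 ± 0.47 above LysoMac (limma, adjusted p = 0.00304), a factor of 23.6, a call kept under all 22 alternatives that apply to it. C5aR+ LysoDC were lower than C5aR- LysoDC, by -3.75 ± 0.47 (limma, adjusted p = 0.0346), a factor of 13.4. That call was kept under 12 of 22 alternatives (adjusted p of 0.00707 to 0.2). It was kept when LysoMac array 3 was left out (adjusted p = 0.0164), and lost without each of the other 8 arrays, at adjusted p of 0.0505 to 0.2. C5aR+ LysoDC and LysoMac differed by 0.81 ± 0.47 there (adjusted p = 0.809 in limma). The mean of both clusters turned the sign of the gene's difference in each comparison, and between C5aR- LysoDC and LysoMac it passed (1.70, adjusted p = 0.0343). Cd209d, a close relative encoded near Cd209a, was also highest in C5aR- LysoDC: it read 3.18, 3.01 and 2.80 in LysoMac, 2.59, 2.86 and 2.48 in C5aR+ LysoDC, and 3.95, 4.26 and 4.83 in C5aR- LysoDC. Its means in LysoMac and C5aR+ LysoDC lay below every array median. Which transcripts each cluster binds was not tested. Epithelial and M cell markers were also higher in C5aR- LysoDC, with a mean log2 level over 10 genes of 4.25 to 4.69 there, against 3.58 to 3.82 in LysoMac and 3.63 to 3.81 in C5aR+ LysoDC. Among them Gp2 averaged 7.42 in C5aR- LysoDC, 3.55 in LysoMac and 4.13 in C5aR+ LysoDC. Cdh1 and Epcam were higher there too, at 6.02 and 4.76 against LysoMac means of 4.27 and 3.21. Of these markers 4 averaged below every array median in C5aR- LysoDC (Krt19, Krt20, Vil1 and Muc13) and were no higher there than in LysoMac. Within C5aR- LysoDC the marker mean was 4.69 on array 1 and 4.25 on array 3. The second cluster of Cd209a had the reverse order there, lowest on array 1 and highest on array 3. Over all 9 arrays, however, Gp2 from this marker list had the profile most like that of the cluster, as described below. The part of epithelial and M cell markers in the result was not tested.

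Mrc1 encodes the mannose receptor, which takes up mannose-bearing glycoproteins. It read 3.41, 3.41 and 3.15 in LysoMac, 5.04, 6.34 and 7.43 in C5aR+ LysoDC and 4.80, 5.61 and 6.67 in C5aR- LysoDC. Every LysoDC array lay above every LysoMac array, but the LysoDC arrays spread over more than 2 log2 units and overlapped each other. The LysoMac mean of 3.32 was below every array median. Neither the difference of 2.95 ± 0.59 in C5aR+ LysoDC (limma, adjusted p = 0.277) nor that of 2.37 ± 0.59 in C5aR- LysoDC (limma, adjusted p = 0.109) passed. Both passed with array weights (adjusted p = 0.0325 and 0.0116), and the latter when array number was a block (adjusted p = 0.0427). The LysoDC populations differed by 0.58, with a 95% interval of -0.76 to 1.92.

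**Figure D2:**
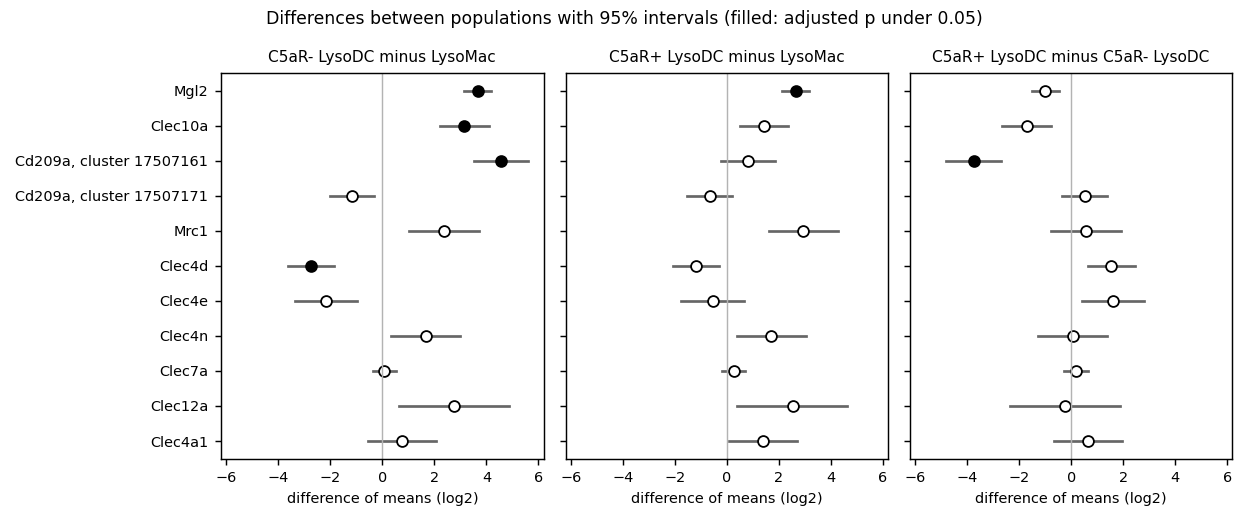
Difference of population means (x axis, log2) for each gene (y axis) in the 3 comparisons, with 95% intervals from limma; filled circles have an adjusted p under 0.05. Against LysoMac, Mgl2 is called in both LysoDC populations and Clec4d falls in C5aR- LysoDC, while the 2 clusters of Cd209a point in opposite directions.

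Clec4d and Clec4e encode the partner receptors MCL and Mincle, which form a complex, sense mycobacterial glycolipids and signal through FcRγ. Clec4d read 7.61, 7.70 and 8.67 in LysoMac, 6.08, 6.89 and 7.41 in C5aR+ LysoDC and 4.93, 5.09 and 5.72 in C5aR- LysoDC. The 3 populations did not overlap, and the order was the reverse of that of Mgl2. Clec4d fell by 2.75 ± 0.39 from LysoMac to C5aR- LysoDC (limma, adjusted p = 0.0124), a factor of 6.71. The call was kept under 21 of 23 alternatives (adjusted p of 0.00138 to 0.0748) and lost without C5aR- LysoDC array 1 (adjusted p = 0.0501) or 2 (adjusted p = 0.0748). C5aR+ LysoDC differed by -1.20 ± 0.39 from LysoMac (limma, adjusted p = 0.745) and by 1.55 ± 0.39 from C5aR- LysoDC (limma, adjusted p = 0.326), and neither passed.

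Clec4e followed Clec4d closely. It read 9.12, 8.42 and 10.22 in LysoMac, 8.03, 8.39 and 9.70 in C5aR+ LysoDC and 6.84, 6.77 and 7.67 in C5aR- LysoDC. LysoMac and C5aR+ LysoDC overlapped, while C5aR- LysoDC lay below both. The difference from LysoMac to C5aR- LysoDC was -2.16 ± 0.53 and did not pass (adjusted p = 0.103 in limma). It passed after quantile normalization (-2.38, adjusted p = 0.0328), after cyclic loess (-2.39, adjusted p = 0.0272), with array weights (-1.99, adjusted p = 0.00714), blocking on array number (adjusted p = 0.00749) and with the 3 arrays numbered 3 left out (-1.97, adjusted p = 0.0498), and adjusted p reached 0.366 without C5aR- LysoDC array 2. The differences of C5aR+ LysoDC were -0.54 ± 0.53 from LysoMac (limma, adjusted p = 0.84) and 1.62 ± 0.53 from C5aR- LysoDC (limma, adjusted p = 0.591).

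Clec4n encodes Dectin-2, a receptor for fungal mannans that also signals through FcRγ, and lies directly beside Clec4d. Its order of populations differed from that of its neighbours. Clec4n read 6.43, 6.04 and 8.23 in LysoMac, 7.89, 8.64 and 9.30 in C5aR+ LysoDC and 7.83, 8.85 and 8.99 in C5aR- LysoDC. LysoMac array 3 lay within the LysoDC range, so the populations overlapped. The differences from LysoMac were 1.71 ± 0.59 in C5aR+ LysoDC (limma, adjusted p = 0.757) and 1.66 ± 0.59 in C5aR- LysoDC (limma, adjusted p = 0.271). Without LysoMac array 3 they were 2.38 (adjusted p = 0.13) and 2.32 (adjusted p = 0.0378), and the latter passed. The LysoDC populations differed by 0.053, with an interval of -1.27 to 1.38.

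Clec7a encodes Dectin-1, the receptor for fungal beta-glucans, which signals to Syk through its own cytoplasmic tail. It was at a high signal on all arrays: 11.73, 11.73 and 12.07 in LysoMac, 11.92, 11.93 and 12.48 in C5aR+ LysoDC and 11.83, 11.81 and 12.14 in C5aR- LysoDC. All populations overlapped, and array 3 was the highest in each. The differences were 0.27 (95% interval -0.18 to 0.71) for C5aR+ LysoDC and 0.08 (-0.36 to 0.52) for C5aR- LysoDC from LysoMac, and 0.19 (-0.26 to 0.63) between the LysoDC populations. The latter 2 changed sign under some alternatives.

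Clec12a encodes an inhibitory receptor that senses uric acid crystals from dead cells. It read 2.80, 3.16 and 2.70 in LysoMac, where the mean lay below every array median, 3.25, 5.17 and 7.81 in C5aR+ LysoDC and 5.02, 5.39 and 6.49 in C5aR- LysoDC. C5aR+ LysoDC array 1 lay just above LysoMac array 2 and array 3 more than 4 log2 units higher, so this population spanned all C5aR- LysoDC arrays. Its SD of 2.29 was the highest of any of the 10 genes in any population. The differences from LysoMac, 2.53 ± 0.94 in C5aR+ LysoDC (limma, adjusted p = 0.793) and 2.75 ± 0.94 in C5aR- LysoDC (limma, adjusted p = 0.252), did not pass. In a fit of C5aR- LysoDC and LysoMac alone, which leaves out the scattered population, the latter did (adjusted p = 0.0381).

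Clec4a1 belongs to the dendritic cell immunoreceptor family. It read 3.91, 3.95 and 4.86 in LysoMac, 4.86, 4.86 and 7.18 in C5aR+ LysoDC and 4.86, 4.68 and 5.43 in C5aR- LysoDC. The value 4.86 was identical to the last deposited digit on 4 arrays of all 3 populations, as equal values were on at least 4 arrays for 4347 clusters (12.9%). C5aR+ LysoDC array 3 stood apart from the other 8 arrays. Differences from LysoMac were 1.39 ± 0.58 in C5aR+ LysoDC (limma, adjusted p = 0.801), where the value without that array was 0.62, and 0.74 ± 0.58 in C5aR- LysoDC (limma, adjusted p = 0.609).

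Across all 10 genes, array 3 was often the highest of its population, as the map of deviations shows. It was the highest in LysoMac for 5 genes, in C5aR+ LysoDC for 8 and in C5aR- LysoDC for 7, against 26.9%, 26.2% and 28.3% of all clusters. Among clusters whose mean was above the median, as that of each of the 10 genes was, these shares were 43.1%, 35.9% and 29.9%. The 5 of 10 in LysoMac are near the share of these brighter clusters. In all 3 populations at once array 3 was the highest for 5 genes, Clec4d, Clec4e, Clec4n, Clec7a and Clec4a1. This held for 5.14% of all clusters and 9.57% of the clusters whose mean was above the median. The labels do not say what the number stands for. Mgl2 and both clusters of Cd209a did not share the pattern in LysoMac or C5aR+ LysoDC. Without any array 3, the calls of Mgl2, Clec10a and Clec4d between C5aR- LysoDC and LysoMac held and that of Clec4e was added.

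**Figure D3:**
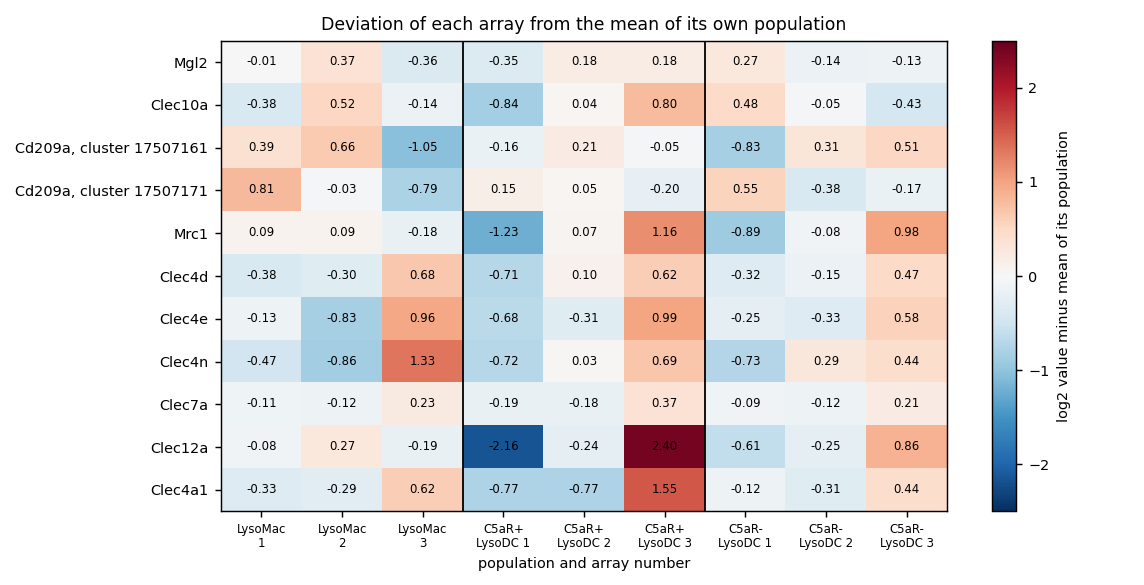
Deviation of each array's log2 value from the mean of its own population (colour and printed number), by gene (y axis) and array (x axis). Array 3 is above its population's mean for Clec4d, Clec4e, Clec4n, Clec7a and Clec4a1 in all 3 populations, and Clec12a deviates most, by 2.40 on C5aR+ LysoDC array 3.

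The mean of the monocyte markers was highest on C5aR+ LysoDC array 3, as were Clec12a, Mrc1, Clec4a1, Clec4n and Clec7a. In LysoMac the marker mean was lowest on array 3 (3.56), as were Clec12a (2.70) and Mrc1 (3.15). Clec4a1 (4.86), Clec4n (8.23) and Clec7a (12.07) were instead highest on that array. In C5aR- LysoDC the marker mean (5.87) and each of these genes were highest on array 3. The mean log2 level of the 6 measured markers of 7 was 6.86 on C5aR+ LysoDC array 3, against 4.98 and 4.70 on arrays 1 and 2, 5.19 to 5.87 in C5aR- LysoDC and 3.56 to 4.22 in LysoMac. On that array Ly6c2 read 7.80 and Fn1 8.18, against C5aR+ LysoDC means of 4.70 and 6.21 and LysoMac means of 2.83 and 3.77. The excess was not particular to monocyte markers. Fcgr1 read 9.78 and Il7r 8.16 there, against C5aR+ LysoDC means of 7.94 and 6.54, while Mertk was lower (6.54 against 7.17). The macrophage marker mean was 9.42, against 8.98 and 8.81 on arrays 1 and 2. Of the 6 monocyte markers 2 averaged below every array median in C5aR+ LysoDC, F13a1 and Vcan. Without that array the differences of C5aR+ LysoDC from LysoMac were 1.33 for Clec12a and 2.37 for Mrc1, in place of 2.53 and 2.95. The monocyte markers' part in these values was not tested.

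C5aR+ LysoDC had a mean between those of the other populations for 6 of the 10 genes (Mgl2, Clec10a, Cd209a, Clec4d, Clec4e and Clec12a). Over all clusters this held for 47.2%, and for 53.1% of those whose mean was above the median. The median difference of the 10 genes was 1.20 between C5aR- LysoDC and LysoMac, 1.41 between C5aR+ LysoDC and LysoMac and 0.36 between C5aR+ and C5aR- LysoDC, against -0.059, -0.035 and 0.015 over all clusters. The arrays of the compared populations did not overlap for 6, 5 and 4 of the genes, in that order, against 14.2%, 7.89% and 10.2% of all clusters. For these differences and overlaps the brighter clusters were not taken separately. The genes were also chosen with earlier results of these data known.

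The genes whose profile over the 9 arrays was most like that of a called gene were found by the root mean square difference of log2 values after each gene's mean was removed, among 22179 genes with 1 symbol. For Mgl2 these were Ccr7 (0.43), a chemokine receptor of migrating dendritic cells, Pld4 (0.48) and Clec4b1 (0.52), another lectin receptor. For Clec10a they were Il2rb (0.34), Rassf4 (0.38) and Ccr7 (0.43). For Clec4d the nearest gene was its neighbour and partner Clec4e (0.42), followed by Pmp22 (0.46) and Aoah (0.46), an enzyme that inactivates bacterial lipopolysaccharide. For the second cluster of Cd209a they were Gp2 (0.55), known as a receptor for bacteria on M cells, Tmprss11d (0.68) and Itgae (0.72), the integrin chain CD103. All genes share the same 9 arrays, so this is a description of likeness.

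Among 36 other lectin-like receptors 33 were measured, and 4 were called between C5aR- LysoDC and LysoMac, against 1.53% of all clusters. Clec4b1, which lies in the same group of genes as Clec4n, rose by 3.24 ± 0.46 from a LysoMac mean of 2.72, below every array median (limma, adjusted p = 0.0118). Cd209d rose by 1.35 ± 0.23 from a LysoMac mean of 3.00, also below every array median (limma, adjusted p = 0.0253). Colec12, a scavenger receptor with a lectin domain, fell by 1.92 ± 0.25 (limma, adjusted p = 0.00846), and Clec1b, best known as the podoplanin receptor of platelets, fell by 1.14 ± 0.17 (limma, adjusted p = 0.0154). Between the LysoDC populations, where 0.101% of all clusters were called, 1 of 33 was, Cd209d, which was lower in C5aR+ cells by -1.70 ± 0.23 (limma, adjusted p = 0.0416). Its C5aR+ LysoDC mean of 2.64 lay below every array median, so this difference too is a lower bound. Between C5aR+ LysoDC and LysoMac 0 of 33 were called in limma and 6 had an unadjusted p under 0.05, against 6.19% of all clusters. There, the brightest members Cd69 and Colec12 differed by -0.39 ± 0.37 and -0.38 ± 0.25.

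Of 24 signalling genes downstream of these receptors 21 were measured. Between C5aR- LysoDC and LysoMac 2 were called and 8 had an unadjusted p under 0.05, against 1.53% and 13.2% of all clusters. Rel, an NF-κB subunit, rose by 1.14 ± 0.23 (limma, adjusted p = 0.0469), and Src, a tyrosine kinase, fell by 0.77 ± 0.14 (limma, adjusted p = 0.0305). In each of the other comparisons 0 of 21 were called in limma, with 4 (between the LysoDC populations) and 2 (C5aR+ LysoDC and LysoMac) at an unadjusted p under 0.05, against 5.46% and 6.19% of all clusters. The share of 2 of 21 at an unadjusted p under 0.05 between C5aR+ LysoDC and LysoMac is near that of all clusters. The adaptor Tyrobp differed by 0.47 ± 0.17 between the LysoDC populations and by 0.045 ± 0.17 between C5aR+ LysoDC and LysoMac, and Rel by -0.54 ± 0.23 and 0.61 ± 0.23. Of 12 genes that such receptors can induce, 1 was called, in a comparison with 1.53% of all clusters called: Nr4a1, an early response gene, rose by 1.91 ± 0.29 from LysoMac to C5aR- LysoDC (limma, adjusted p = 0.0157). In the other comparisons 0 of 12 were called in limma, 4 in each having an unadjusted p under 0.05, against 5.46% of all clusters between the LysoDC populations and 6.19% between C5aR+ LysoDC and LysoMac. The cytokine gene Il1b, the brightest of this list, differed by 0.26 ± 0.16 and -0.039 ± 0.16, and Nr4a1 by -1.16 ± 0.29 and 0.75 ± 0.29, between the LysoDC populations and between C5aR+ LysoDC and LysoMac.

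**Figure D4:**
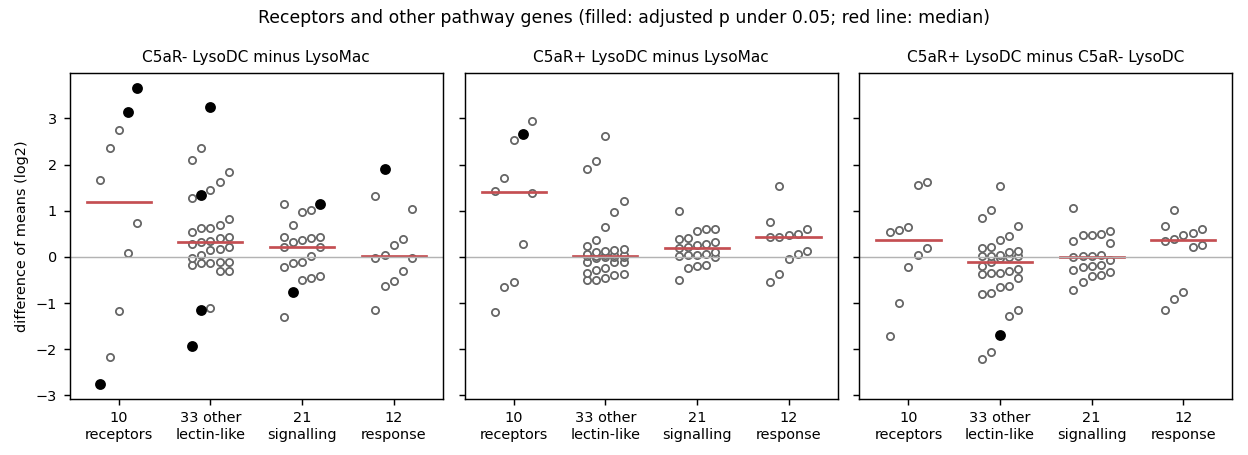
Difference of population means (y axis, log2) for the 10 receptors, 33 other lectin-like receptors, 21 signalling genes and 12 response genes (x axis) in the 3 comparisons. Each point is a gene, filled where its adjusted p was under 0.05, and red lines are medians; called genes are 3, 4, 2 and 1 in the comparison of C5aR- LysoDC with LysoMac.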

How the data were processed

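Per the labels' protocols, total RNA was amplified with a kit for small inputs and hybridised to 9 arrays. The authors deposited log2 expression for each transcript cluster on each array. RMA and Affymetrix Power Tools are named in the submitters' processing notes, and their settings and versions were not given in the sources used here. RMA normalizes between arrays and can compress low and high signals. No filter or further normalization was applied. Groups and replicate numbers come from titles. Another label of arrays 2 and 3 of C5aR- LysoDC differs from C5aR in the number within the name, and differently on each array. The titles were followed.

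Differences were fitted in R 4.3.3 with limma 3.58.1. The model had a mean for each of the 3 populations and 6 residual degrees of freedom, with empirical Bayes variances, two-sided tests and Benjamini-Hochberg adjustment over 33793 clusters. The median SE was 0.204. In 5 simulated data sets with 200 changed of 33793 clusters between C5aR- LysoDC and LysoMac, 37.8% of 2-fold and 82.2% of 4-fold changes were recovered and 3.53% of calls were false. The simulated arrays were independent, normal and of equal variance in all populations, unlike the real arrays, so these rates may not hold for them. Deviations of same-numbered arrays correlated at 0.16, 0.26 and 0.41 over clusters between C5aR+ LysoDC and LysoMac, which the labels do not explain, and at -0.11 to 0.23 in the other comparisons; the replicate number as a block was an alternative and changed no call of the 10 genes between C5aR+ LysoDC and LysoMac.

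Of the clusters, 23521 have 1 symbol in the platform annotation, 1814 several and 8458 none. Alternatives covered normalization, filters, variance models, array weights, the replicate block, Cd209a clusters and leaving out arrays. A minimum of a 2-fold difference was also among them and could not remove a call, since every called difference of these genes exceeded it. The mean of all clusters of a gene left the values of genes with 1 cluster unchanged. Named were all 10 genes, up to 4 called genes per list and comparison (where none was called, the 2 brightest) and 3 like genes per called gene. Members and lists were chosen with earlier results of these data known. List genes without a cluster of their own symbol alone were not analysed here. Figures were drawn with matplotlib 3.10.9.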

Additional observations from a re-analysis of the deposited data

How the results depend on the processing

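Of the 3 counts of called genes (0 between the LysoDC populations, 1 between C5aR+ LysoDC and LysoMac, 3 between C5aR- LysoDC and LysoMac), 61 alternative values stayed within 1.5 times the count, 6 were higher and 5 lower. With the replicate number as a block they were 1 (Clec4d), 1 and 5 (Clec4e and Mrc1 added); same-numbered arrays did not all deviate together in the first and last of these comparisons. With array weights they were 0, 5 (Clec10a, Cd209a, Clec4n and Mrc1 added) and 8 (Cd209a, Clec4e, Clec4n, Clec12a and Mrc1 added). The fit of 2 populations alone gave 0 between C5aR+ LysoDC and LysoMac, as did leaving out all arrays numbered 3, an alternative chosen after seeing the data. With the second cluster standing for Cd209a the count between the LysoDC populations was 1, which was also chosen after seeing the data. Without each array in turn, the count between C5aR+ LysoDC and LysoMac was 0 to 1 and that between C5aR- LysoDC and LysoMac 1 (without C5aR- LysoDC array 2) to 5 (without LysoMac array 3).

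Signs turned only for differences that did not pass as reported. With the mean of both clusters, Cd209a differed by -1.61 between the LysoDC populations, 0.084 between C5aR+ LysoDC and LysoMac and 1.70 between C5aR- LysoDC and LysoMac, where the turned difference passed (adjusted p = 0.0343). Clec7a between C5aR- LysoDC and LysoMac was -0.0014 after quantile normalization, -0.14 after cyclic loess and -0.026 to 0.19 without each array. Between the LysoDC populations Clec4n was -0.077 with array weights, -0.071 without arrays numbered 3 and -0.31 to 0.41 without each array; the ranges of Clec12a, Clec7a and Clec4a1 without each array were -1.43 to 0.86, -0.0006 to 0.29 and -0.12 to 1.04. The cause of these changes was not tested. The files give no detection calls, so low signals are bounded only by the array medians.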
